A study of Mus musculus with 16 samples.

Results

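Dppa2, Dppa3, Dppa4, Dppa5a, Ooep, Khdc3, Tcl1 and Zfp57 are genes of the pluripotent embryo and the oocyte whose transcripts were followed here in mouse embryonic stem cells (mESCs). The members were taken by name, with every probe on the Agilent expression array whose RefSeq accession belongs to one of them. This gave 12 probes for 8 of the 21154 genes that could be named among 55681 non-control probes. Dppa2 and Zfp57 had 2 probes each, Dppa4 had 3 and the other members 1. A member with several probes is described by its brightest probe on average, called the main probe, and the others are given beside it.

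The study asked how wild-type, hypomethylated and constitutively methylated mESCs respond to 2i, a serum-free medium with inhibitors of Mek and Gsk3 that brings the cells to a ground state of pluripotency. All lines are male and derive from J1 mESCs. J1 itself is wild-type. TKO mESCs have no functional Dnmt1, Dnmt3a and Dnmt3b, the DNA methyltransferases. 3B3l cells (3B3-3l in the labels) are Dnmt3a/3b knockout cells that express exogenous Dnmt3b and its cofactor Dnmt3l constitutively. There were 4 arrays of J1-serum, 3 of J1-2i and 3 of TKO-2i, and the remaining groups (TKO-serum and both 3B3l groups) had 2 each. Serum cells were kept in foetal calf serum with LIF at 500 U/ml. The 2i groups spent 2 weeks in N2B27 medium with PD0325901 at 1 μM, CHIR99021 at 3 μM and LIF at 1000 U/ml. Only J1-serum cells had a feeder layer (SNLP cells inactivated with Mitomycin C), the other groups being feeder-free on gelatin, so that feeders and medium cannot be told apart in J1. TKO and 3B3l each stand for 1 derived line. The labels do not say whether replicate arrays came from separate cultures, and the p-values then measure only the spread between these samples, which may be technical.

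Levels are log2 processed intensities less the 75th percentile of their array, a reference that ran from 1019 to 1797 intensity units, and 39.7% to 49.0% of spots were well above background. The arrays lay on 3 slides, and all 4 arrays of 3B3l shared slide 3 with J1-serum replicate 1 alone. Slide 3 was scanned on a different day from slides 1 and 2. Of the methyltransferases, Dnmt3a did not rise well above background in either mutant line, Dnmt1 lay between −1.70 and −1.42 in TKO and between 1.61 and 2.45 in the other lines, and the main Dnmt3b probe lay between 5.44 and 6.01 in 3B3l and between −0.70 and 3.08 elsewhere. The other 2 Dnmt3b probes did not show this rise: they lay between −1.06 and −0.94 and between 0.71 and 0.86 in 3B3l-serum, against 2.32 to 2.62 and 4.02 to 4.41 in J1-serum, and 1 of them was not well above background in 3B3l-2i. All 8 ES cell markers examined (Pou5f1, Nanog and others) were well above background. Of 14 fibroblast markers, 12 could be tested and all 12 were lower in J1-2i than in J1-serum; the log2 of their summed relative signal was 5.87 to 6.14 in J1-serum, 5.31 to 5.33 in 3B3l-serum, 3.82 to 3.89 in TKO-serum and 1.48 to 2.25 in the 2i groups, and Lum was not well above background on any array. All 8 primitive endoderm markers were also lower in J1-2i than in J1-serum, with a median of −4.41. Their summed relative signal was 3.04 to 3.43 against 5.27 to 5.59 on the log2 scale, and Lama1 (mean 3.18) made up most of the J1-2i sum. All 8 were lower in TKO-serum and in 3B3l-serum than in J1-serum too (medians −3.03 and −2.86), as were 11 and 8 of the 12 fibroblast markers. In TKO 6 of 12 fibroblast and 4 of 8 primitive endoderm markers were lower in 2i than in serum, in 3B3l 7 of 12 (with 1 higher) and 3 of 8, and 7 of 12 fibroblast markers were higher in 3B3l-serum than in TKO-serum. Of 7 trophoblast markers tested, 6 were higher in 3B3l-serum than in J1-serum, 4 were higher than in TKO-serum, and 5 fell in 2i in 3B3l, 4 in TKO and 4 in J1, with 1 higher in each of TKO and J1; their summed relative signal was 3.56 to 3.75 in 3B3l-serum and 2.23 to 3.14 in the other groups. Some of these calls were between groups with no array well above background. Among them were Sox7 and Dab2 in 3B3l, Dcn in TKO and Gata3 in J1, each 2i against serum. The markers of these 3 lists move with the medium and with comparisons between serum groups, and their part in the results for the members was not tested. In a bulk array, fewer cells that express a gene and less RNA per cell cannot be told apart.

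Dppa2 and Dppa4 are SAP-domain proteins that bind DNA as a pair and activate genes of the zygotic programme. Dppa3, also called Stella, is a maternal factor that protects the maternal genome from loss of 5-methylcytosine and can displace Uhrf1 from chromatin. Dppa5a, Ooep and Khdc3 are KH-domain proteins, of which Ooep and Khdc3 belong to the subcortical maternal complex of the oocyte and early embryo. Tcl1 binds Akt kinases and enhances their activity. Zfp57 is a KRAB zinc finger protein that binds a methylated motif at imprinting control regions and recruits Trim28. Dppa2 and Dppa4 are neighbours on chromosome 16, as are Dppa5a and Ooep on chromosome 9, where Khdc3 lies 38 protein-coding genes away. Dppa3 lies on chromosome 6 between Gdf3 and Nanog, Tcl1 on chromosome 12 beside Tcl1b4, and Zfp57 on chromosome 17.

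Because the lines differ in DNA methylation, which in mammals sits mainly on CpG, the 250 bases upstream of a RefSeq transcription start are shown for Khdc3 and Tcl1, the members with such an entry that moved on their only probe, and for Ooep, which has the most CpGs of the 4 members with an entry. The sequences are from RefSeq, build GRCm38.p6, 5′ to 3′ on the strand of the gene, with every CG in capitals. Khdc3 is chr9:73102148-73102397 (plus strand), Tcl1 is chr12:105222738-105222987 (minus strand) and Ooep is chr9:78378589-78378838 (minus strand).
Khdc3: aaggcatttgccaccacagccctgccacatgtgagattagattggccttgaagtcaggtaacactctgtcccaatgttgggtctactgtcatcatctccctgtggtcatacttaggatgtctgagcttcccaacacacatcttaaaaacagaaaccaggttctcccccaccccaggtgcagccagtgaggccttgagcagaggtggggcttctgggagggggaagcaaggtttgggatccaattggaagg
Tcl1: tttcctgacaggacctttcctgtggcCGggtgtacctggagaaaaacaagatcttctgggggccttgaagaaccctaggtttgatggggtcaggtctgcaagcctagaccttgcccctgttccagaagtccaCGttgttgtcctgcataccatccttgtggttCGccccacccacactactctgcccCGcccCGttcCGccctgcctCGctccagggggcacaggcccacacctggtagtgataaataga
Ooep: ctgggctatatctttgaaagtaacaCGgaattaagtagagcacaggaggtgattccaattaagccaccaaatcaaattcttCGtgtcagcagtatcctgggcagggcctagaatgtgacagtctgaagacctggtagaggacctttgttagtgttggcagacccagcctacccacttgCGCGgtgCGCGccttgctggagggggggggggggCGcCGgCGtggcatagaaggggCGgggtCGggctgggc
The Khdc3 window holds 0 CGs, as do 7.9% of the 32851 promoter windows of this length, and 92.1% hold more. Tcl1 has 7, near the median of 6, with 43.0% of windows holding more. Ooep has 11, and 33.5% of windows hold more. Zfp57 has 3 start sites in the table, with 3, 6 and 7 CGs. These counts describe the sequence only, since no methylation was measured on the arrays.

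**Figure D1:**
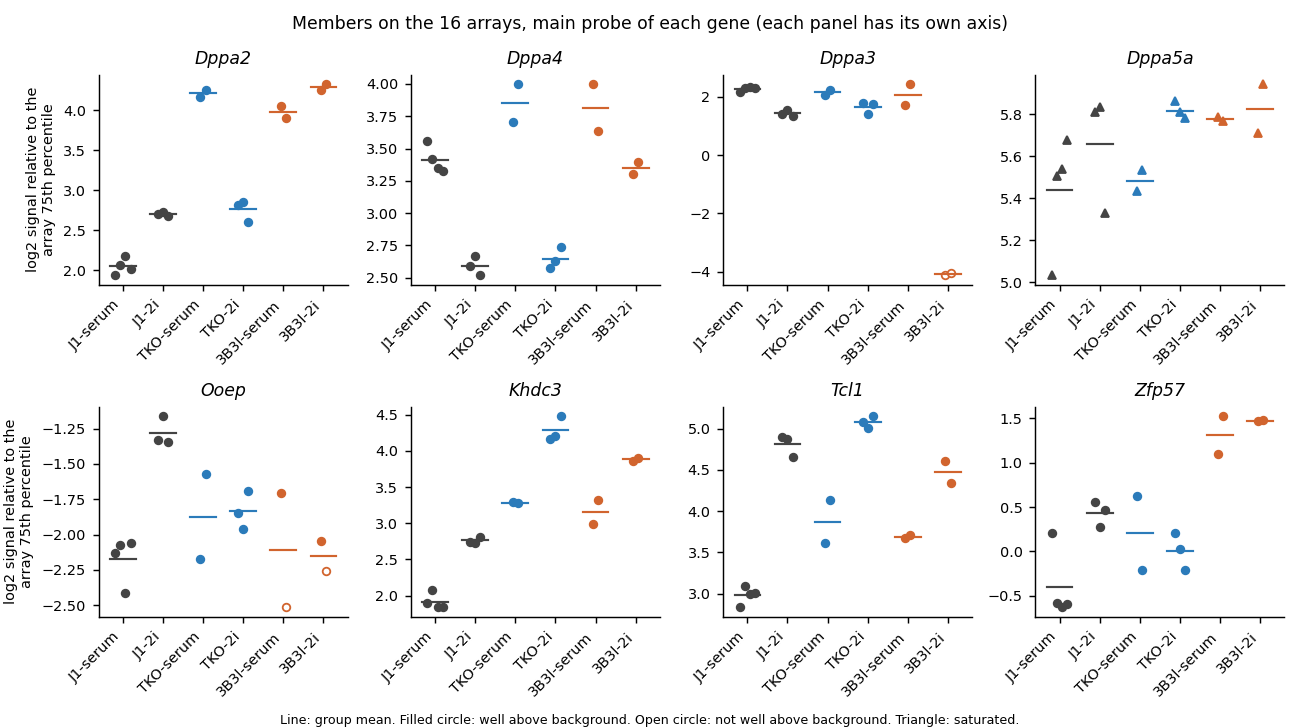
Relative level of each member on the 16 arrays by its main probe, as log2 signal relative to the array's 75th percentile (each panel has its own axis), with lines at group means. Dppa3 falls to −4.13 and −4.05 in 3B3l-2i, both open circles for signals not well above background, and every Dppa5a point is a triangle for a saturated spot.

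The response to 2i differed from member to member and from line to line. A member was called when limma's Benjamini-Hochberg adjusted p over all 26973 tested probes was at most 0.05 and the change at least 2-fold. In J1 cells 1 of 8 members rose (Tcl1) and 0 fell, where 10.1% of the 13861 genes tested rose and 12.6% fell. In TKO cells 1 rose (Tcl1) and 2 fell (Dppa2 and Dppa4), with 6.73% of genes higher and 9.1% lower. In 3B3l cells 0 rose and 1 fell (Dppa3), with 5.63% higher and 7.97% lower. Dppa5a, saturated on every array, counts among the 8 but cannot show a change. Without it the median log2 change of the members was 0.83 in J1, −0.20 in TKO and 0.16 in 3B3l, against 0.05, 0.07 and 0.00 over all genes. All 12 member probes passed the filter on dim signals.

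**Figure D2:**
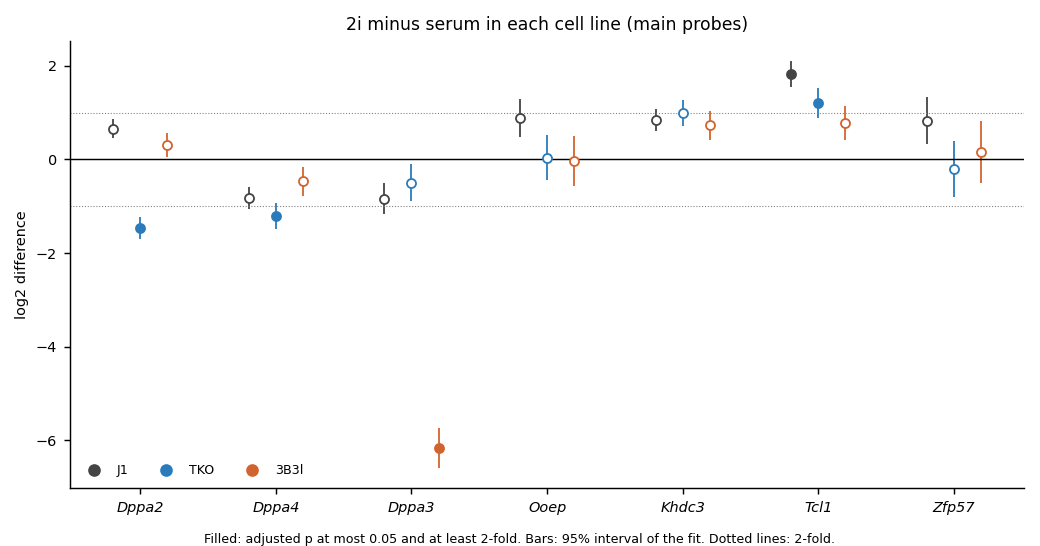
Log2 difference of 2i minus serum for 7 members (x axis) in J1, TKO and 3B3l cells, with bars for the 95% interval of the fit and filled points for calls. Dppa3 in 3B3l stands at −6.16, below every other point, and since its 2i signal was not well above background this is the fitted difference, where only a fall of at least 21.1-fold is measured; saturated Dppa5a is left out.

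Dppa3 was not well above background in the 2i state of constitutively methylated cells, and was on every array of the other groups. The J1-serum arrays read 2.16, 2.30, 2.33 and 2.29. J1-2i arrays read 1.42, 1.55 and 1.33, all below serum. The TKO-serum arrays read 2.07 and 2.24 and the TKO-2i arrays 1.79, 1.41 and 1.76. In both lines the serum arrays lay above the 2i arrays without overlap. In 3B3l-serum the levels were 1.72 and 2.43, which spanned the other serum arrays. In 3B3l-2i they were −4.13 and −4.05, both not well above background. In intensity units these 2 arrays gave 68.4 and 61.6, against 2851 to 8057 on the other 14. The fitted difference of 3B3l-2i from 3B3l-serum was −6.16 (SE 0.20, limma adjusted p = 1.39e-09). Since the lower group has only a bound, Dppa3 was at least 21.1-fold lower, a limit set by the lowest signal well above background on each array of the lower group. Against J1-2i it was at least 13.5-fold lower (adjusted p = 1.42e-09), and against TKO-2i at least 15.7-fold lower (adjusted p = 3.07e-10). In J1 the fall of 0.84 (SE 0.15, adjusted p = 0.000512) was under 2-fold, and in TKO the difference was −0.50 (SE 0.18, adjusted p = 0.0529). In serum no difference between the lines was called, with values of −0.12 for TKO minus J1, −0.20 for 3B3l minus J1 and −0.07 for 3B3l minus TKO. Since all 4 arrays of 3B3l were on slide 3, the fall in 3B3l is a comparison within that slide.

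The 4 genes nearest to Dppa3 on chromosome 6 stayed well above background in 3B3l-2i. They were chosen by position after the Dppa3 values were known. Gdf3, a Nodal-related ligand, read 3.55 and 3.79 in 3B3l-2i and 3.95 and 4.18 in 3B3l-serum, a difference of −0.39 (SE 0.13, adjusted p = 0.0391) that was under 2-fold. Gdf3 rose in J1 by 1.35 (adjusted p = 1.32e-07), and its response in 3B3l differed from that in J1 by −1.75 (adjusted p = 5.77e-06) and its response in TKO by −1.55 (adjusted p = 1.13e-05). Apobec1, a cytidine deaminase that edits RNA, went the other way, from 0.21 and 0.42 in serum to 0.87 and 0.89 in 2i, a difference of 0.57 (SE 0.13, adjusted p = 0.00562) under 2-fold. Nanog, a core pluripotency factor, differed by −0.01 (SE 0.20) and Slc2a3, a glucose transporter, by −0.14 (SE 0.18). Nanog and Slc2a3 were partly saturated, on 1 of 4 and 3 of 4 of these arrays, so their differences may be understated. Among regulators of DNA methylation, Uhrf1 was 0.63 higher in 3B3l-2i than in 3B3l-serum (adjusted p = 0.00307, under 2-fold) and level with J1-2i within 0.13 (adjusted p = 0.414). Of the list of Uhrf1, Dnmt1, Tet1, Tet2 and Tet3, 1 of 5 rose in 3B3l (Tet2, by 1.03, adjusted p = 0.000647) and 0 fell, where 5.63% of all genes rose. In J1, 2 of 5 rose (Tet2 by 1.51, adjusted p = 8.57e-07, and Uhrf1 by 1.18, adjusted p = 6.95e-07), and in TKO 1 of 5 rose (Uhrf1, by 1.09, adjusted p = 1.44e-05), where 10.1% and 6.73% of all genes did.

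**Figure D3:**
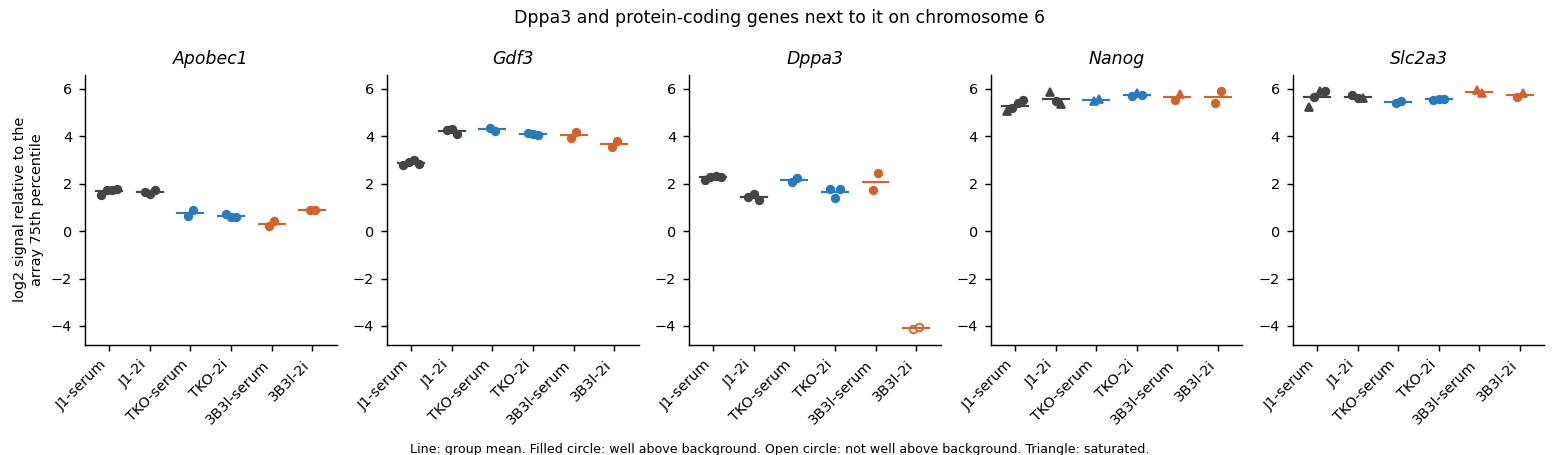
Dppa3 and the 4 protein-coding genes nearest to it on chromosome 6 on the 16 arrays, as log2 signal relative to the array's 75th percentile on 1 common scale; levels of different probes are not comparable. Apobec1, Gdf3, Nanog and Slc2a3 stay well above background in 3B3l-2i, where both Dppa3 points are open circles near −4.

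Dppa2 was high in TKO-serum and in both 3B3l groups and lower in the other 3 groups. J1-serum arrays read 1.93, 2.06, 2.18 and 2.01, and J1-2i arrays 2.71, 2.72 and 2.68. The TKO-serum arrays read 4.17 and 4.26, but the TKO-2i arrays 2.82, 2.86 and 2.60. The 3B3l line was high in both media, with 4.06 and 3.91 in serum and 4.25 and 4.33 in 2i. The ranges of J1-2i and TKO-2i overlapped, as did those of TKO-serum and 3B3l-2i, and 3B3l-serum lay just below these without a call (−0.24 from TKO-serum, SE 0.12, adjusted p = 0.151). In 2i Dppa2 fell by 1.46 in TKO (SE 0.11, adjusted p = 3.8e-07). It was higher by 0.66 in J1 (SE 0.09, adjusted p = 4.59e-05), under 2-fold, and by 0.31 in 3B3l (SE 0.12, adjusted p = 0.0757). The fall in TKO differed from the J1 response by −2.12 (SE 0.14, adjusted p = 4.98e-07). In serum TKO exceeded J1 by 2.17 (SE 0.10, adjusted p = 1.35e-08) and 3B3l exceeded J1 by 1.94 (SE 0.10, adjusted p = 2.29e-08). In 2i TKO and J1 differed by 0.05 (95% interval −0.15 to 0.26), whereas 3B3l exceeded J1 by 1.59 (adjusted p = 4.58e-07) and TKO by 1.53 (adjusted p = 5.74e-07). The second probe, A_55_P2059730, passed the same 6 tests in the same direction, with −1.38 for TKO-2i minus TKO-serum, 1.71 and 1.46 for TKO and 3B3l against J1 in serum, 2.10 and 2.02 for 3B3l against J1 and TKO in 2i, and −1.63 for the difference of responses. On it the J1 response was 0.25 with overlapping groups (adjusted p = 0.3) and the 3B3l response 0.89 (adjusted p = 0.0176, under 2-fold). The gene on the other side of Dppa2 from Dppa4, Morc1, which acts in retrotransposon silencing in germ cells, was also chosen by position. It rose by 1.84 in J1 (adjusted p = 1.71e-07) and 1.09 in 3B3l (adjusted p = 0.00052), and differed by 0.31 in TKO (adjusted p = 0.178). Like Dppa2 it was higher in TKO-serum than in J1-serum, by 1.47 (adjusted p = 8.38e-06), and its TKO response differed from that of J1 by −1.53 (adjusted p = 0.000173). In 3B3l-2i, where Dppa2 was 1.59 above J1-2i, Morc1 differed by −0.26 (adjusted p = 0.213).

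Dppa4 lay lower in 2i in every line on its main probe. Its main probe read 3.56, 3.42, 3.35 and 3.32 in J1-serum and 2.59, 2.67 and 2.52 in J1-2i. TKO went from 3.71 and 4.0 in serum to 2.58, 2.63 and 2.74 in 2i. 3B3l-serum arrays read 4.0 and 3.63 and 3B3l-2i arrays 3.30 and 3.40. On this probe serum and 2i groups did not overlap in any line. The fall of 1.21 in TKO (SE 0.13, adjusted p = 1.21e-05) passed the 2-fold limit, and the differences of −0.82 in J1 (SE 0.11, adjusted p = 3.95e-05) and −0.47 in 3B3l (SE 0.14, adjusted p = 0.0301) did not. The TKO response did not pass the test against that of J1 (difference −0.39, 95% interval −0.76 to −0.02, adjusted p = 0.121). Between the lines Dppa4 differed by less than 2-fold in both media: TKO minus J1 was 0.44 in serum and 0.05 in 2i, and 3B3l minus J1 was 0.40 and 0.76. The probe A_55_P2065549 fell in TKO by 1.27 (adjusted p = 0.000138), and the dimmer A_55_P2158607 gave −0.79 (adjusted p = 9.05e-05), under the limit. In 3B3l these probes gave −0.25 (adjusted p = 0.46), with overlapping groups, and −0.35 (adjusted p = 0.0471).

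Genes known to be activated by Dppa2 and Dppa4 in 2-cell-like mESCs were read from a list of 8, of which 7 were on the array and tested. In J1 5 of 7 fell in 2i and 0 rose (median −2.11), where 12.6% of all genes fell. In TKO 5 of 7 fell and 0 rose (median −3.16, or −2.0 with 3 genes at background in TKO-2i taken at their bound), where 9.1% fell. In 3B3l 3 of 7 rose and 0 fell (median 0.84, or 0.56 with 1 gene at its bound), where 5.63% rose. Tcstv1, counted among these, was not well above background on any 3B3l array, so its rise was not measured. The others were Zscan4c and Zscan4f. Zscan4f, a zinc finger gene of the 2-cell stage, had a mean of 4.04 in J1-serum, 1.93 in J1-2i, 3.46 in TKO-serum, 1.58 in 3B3l-serum and 3.97 in 3B3l-2i. In TKO-2i all 3 arrays were without a signal well above background, which put it at least 63.8-fold lower than in TKO-serum (adjusted p = 1.22e-11). Mael, a piRNA pathway gene, fell by 3.15 in J1 (adjusted p = 1.17e-09) and by 3.20 in TKO (adjusted p = 1.46e-08), and differed by less than 2-fold in 3B3l. In 3B3l-2i 5 of 7 were higher than in TKO-2i and 1 was lower (4.67% and 5.35% of all genes), beside the 1.53 higher Dppa2. Of the 5, Tcstv1 was not well above background in either group. Tcstv3 was so on 1 of 2 3B3l-2i arrays and on no TKO-2i array. Dppa2 and the list did not always go the same way, since in TKO-serum, where Dppa2 was 2.17 above J1-serum, 0 of 7 were higher and 1 was lower (7.78% and 8.73% of all genes). In 3B3l-serum, where Dppa2 was 1.94 above J1-serum, 0 of 7 were higher and 3 were lower (median −0.96), against 9.86% and 9.44% of all genes. In 3B3l-2i, where Dppa2 was 1.59 above J1-2i, 3 of 7 were higher and 0 lower (7.83% and 6.57% of all genes). In TKO-2i, where Dppa2 differed from J1-2i by 0.05, 0 of 7 were higher and 4 lower (3.79% and 3.56%). Tcstv1, among these 4, was not well above background in either group. Zscan4 and Tcstv genes are near-identical copies whose probes may share signal, and their values are uncertain.

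**Figure D4:**
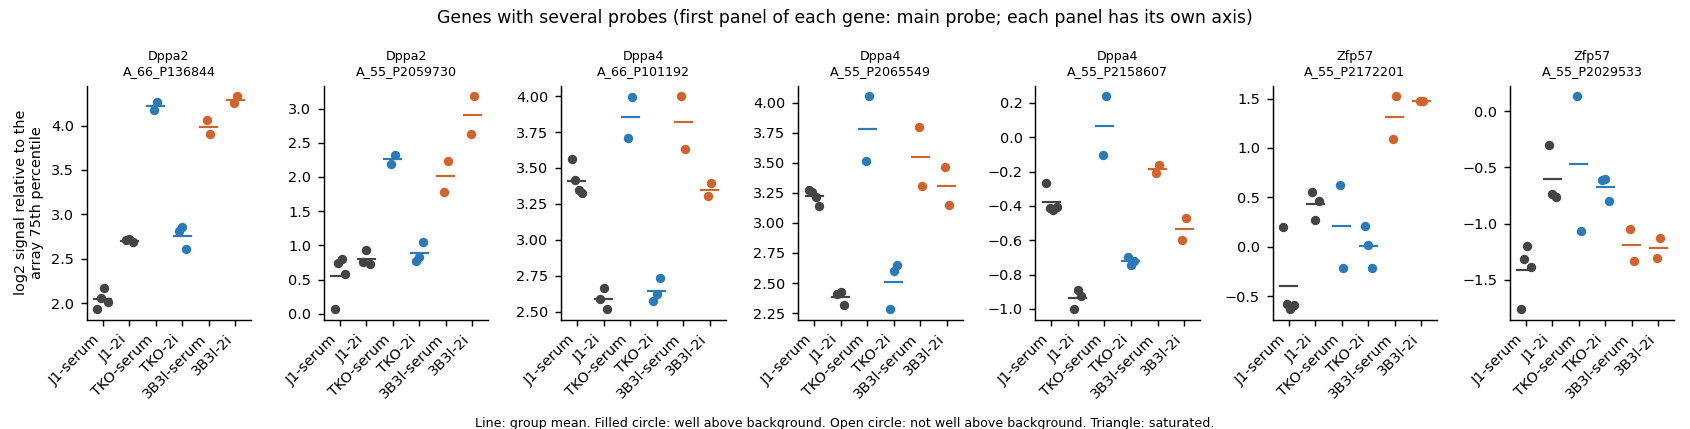
All probes of the members with more than 1 probe on the 16 arrays, as log2 signal relative to the array's 75th percentile (each panel has its own axis, the main probe first). The Dppa2 and Dppa4 probes order the groups much alike, whereas the 3B3l arrays are the highest on the main Zfp57 probe and are near J1-serum on the other.

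In each of the 3 lines 2i cells held more Tcl1 transcript than serum cells. On J1-serum arrays it read 2.83, 3.09, 3.00 and 3.00, and on J1-2i arrays 4.90, 4.88 and 4.66. TKO rose from 3.61 and 4.14 to 5.08, 5.0 and 5.15. 3B3l went from 3.68 and 3.71 to 4.61 and 4.35. Every 2i array was above every serum array over all 3 lines. Tcl1 rose by 1.83 in J1 (SE 0.13, adjusted p = 9.76e-08), or 3.55-fold, and by 1.21 in TKO (SE 0.15, adjusted p = 4.44e-05). The TKO rise was 0.94 without TKO-serum replicate 1, under 2-fold. In 3B3l the difference of 0.79 (SE 0.17, adjusted p = 0.0034) was under 2-fold. The 3B3l response was smaller than that of J1 by 1.04 (SE 0.21, adjusted p = 0.00241), and this lay just under the limit with slide as a block or without J1-serum replicate 1 (−0.99 in both) and without 3B3l-2i replicate 2 (−0.91). The difference of the TKO response, −0.62 (SE 0.20, adjusted p = 0.0345), was under 2-fold. In serum Tcl1 was above J1 by 0.89 in TKO and 0.71 in 3B3l, both under 2-fold (adjusted p = 0.000295 and 0.00134), and in 2i TKO and J1 differed by 0.27 (adjusted p = 0.179).

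Among the Tcl1 relatives, Tcl1b2, a Tcl1 paralog, rose in 2i in J1 by 2.63 (SE 0.47, adjusted p = 0.000471), from a group with 1 of 4 arrays well above background (SD 1.01) to one with 3 of 3. In 3B3l all 4 arrays were well above background and the difference was −0.53 (adjusted p = 0.646), with overlapping groups. No TKO array was well above background. Tcl1b4, the nearest neighbour of Tcl1, differed by −0.04 in J1 and 0.07 in TKO, without a call.

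Khdc3 was higher in 2i than in serum within each line, and higher in both mutant lines than in J1. Its J1-serum levels were 1.90, 2.08, 1.84 and 1.83, and its J1-2i levels 2.74, 2.73 and 2.81. TKO-serum gave 3.29 and 3.28 and TKO-2i 4.16, 4.21 and 4.48. 3B3l-serum gave 2.98 and 3.32 and 3B3l-2i 3.86 and 3.90. The groups overlapped only between TKO-serum and 3B3l-serum. In serum TKO exceeded J1 by 1.37 (SE 0.12, adjusted p = 2.03e-06) and 3B3l exceeded J1 by 1.24 (SE 0.12, adjusted p = 3.93e-06). In 2i these differences were 1.52 (SE 0.11, adjusted p = 1.56e-06) and 1.12 (SE 0.13, adjusted p = 3e-05). The last was 0.94 after quantile normalization, 0.99 after normexp background correction and 0.93 in the authors' table, all under 2-fold. The 2i differences of 0.85 in J1, 1.00 in TKO and 0.73 in 3B3l had adjusted p of 2.43e-05, 5.35e-05 and 0.00175 and all fell short of 2-fold. In TKO the limit was passed without TKO-2i replicate 1 (1.06) or replicate 2 (1.03), and under array median scaling J1 (1.01) and TKO (1.02) both passed it. The responses of TKO and 3B3l differed from that of J1 by 0.15 (95% interval −0.21 to 0.51) and −0.12 (−0.50 to 0.26).

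Ooep was dim on every array. J1-serum arrays read −2.13, −2.07, −2.42 and −2.06, and J1-2i arrays −1.33, −1.16 and −1.34. TKO-serum arrays read −2.18 and −1.57 and TKO-2i arrays −1.85, −1.96 and −1.69. 3B3l cells gave −1.71 and −2.52 in serum, then −2.05 and −2.26 in 2i, and replicate 2 of both groups was not well above background. J1-2i stood above all other arrays. TKO-2i lay above J1-serum and 3B3l-2i (3B3l-2i minus TKO-2i −0.32, adjusted p = 0.32), and the other pairs of groups overlapped. The J1 difference of 0.89 (SE 0.19, adjusted p = 0.00164) was under 2-fold, and passed it under array median scaling (1.05) and in the authors' table (1.0). In TKO and 3B3l the differences were 0.04 (95% interval −0.45 to 0.53) and −0.04 (−0.58 to 0.50). Against J1-2i the 3B3l-2i level was lower by 0.87 (adjusted p = 0.00891), under 2-fold.

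Dppa5a was saturated on all 16 arrays, with intensities between 56974 and 62712. Its relative levels, 5.03 to 5.94, follow the scaling of each array, and no difference between groups can be read from them. The signal was at the top of the scanner's range in every line and medium.

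Other oocyte genes were in part detected. Of 6 further genes of the subcortical maternal complex and its relatives, 2 could be tested, Tle6 and Nlrp4f, and Padi6, Zbed3 and Nlrp2 were not well above background on any array. In 2i 1 of 2 rose in each line and 0 fell: Nlrp4f in J1 (1.70, adjusted p = 4.36e-05, with 1 of 4 J1-serum arrays well above background) and Tle6 in TKO (1.09, adjusted p = 6.8e-06) and 3B3l (1.04, adjusted p = 3.15e-05), where 10.1%, 6.73% and 5.63% of all genes rose. In J1 Tle6 differed by −0.82 (adjusted p = 9.05e-06), under 2-fold, and its responses in TKO and 3B3l differed from that in J1 by 1.91 (adjusted p = 1.46e-06) and 1.86 (adjusted p = 2.22e-06). None of the 3 Khdc1 genes was above background. Of 18 oocyte markers 17 were on the array and 5 were tested, while 9 of them, among them Zp1, Zp2, Bmp15 and Nobox, were not well above background on any array. Zp3, a zona pellucida glycoprotein, was higher than in J1 by 1.25 in TKO-serum, 1.73 in 3B3l-serum, 2.12 in TKO-2i and 1.96 in 3B3l-2i, with adjusted p from 7.49e-07 to 3.48e-05. It also rose in 2i in TKO, by 1.13 (adjusted p = 0.000143). Others of the list were lower. Mos, a kinase of oocyte maturation, was lower in TKO-2i and 3B3l-2i than in J1-2i, at least 1.59-fold and 1.37-fold (adjusted p = 0.00442 and 0.000125), and Oas1d, an oligoadenylate synthetase relative, was at least 1.94-fold lower in 3B3l-serum and 2.02-fold lower in 3B3l-2i than in J1 in the same medium (adjusted p = 0.00488 and 0.00976). In each of these the lower group was not well above background. Against J1, 2 of the 5 tested were higher and 0 lower in TKO-serum, 1 and 1 in 3B3l-serum, 1 and 1 in TKO-2i, and 1 and 2 in 3B3l-2i, beside shares of all genes of 7.78% and 8.73%, 9.86% and 9.44%, 3.79% and 3.56%, and 7.83% and 6.57%. Of the 5 tested, 1 fell in 2i in J1 (Npm2, an egg histone chaperone, not well above background in J1-2i) and 0 rose. In TKO 1 rose (Zp3) and 2 fell (Npm2 and Nlrp14, neither well above background in TKO-2i), and in 3B3l 0 rose and 0 fell. Of all genes 10.1% rose and 12.6% fell in J1, 6.73% and 9.1% in TKO, and 5.63% and 7.97% in 3B3l.

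Zfp57 differed between its 2 probes. On the main probe J1-serum read 0.20, −0.58, −0.63 and −0.59, and J1-2i 0.55, 0.27 and 0.46. TKO-serum read 0.62 and −0.21 and TKO-2i 0.21, 0.02 and −0.21. 3B3l-serum read 1.1 and 1.52 and 3B3l-2i 1.47 and 1.47, above every other array. 3B3l exceeded J1 by 1.71 in serum (SE 0.26, adjusted p = 0.000168) and 1.04 in 2i (SE 0.28, adjusted p = 0.0103), and TKO by 1.1 in serum (SE 0.30, adjusted p = 0.0172) and 1.47 in 2i (SE 0.28, adjusted p = 0.00182). The highest of the J1-serum arrays was replicate 1, which shared slide 3 with the 3B3l arrays. Within slide 3 the serum difference from J1 was 1.11, and with slide as a block the 4 values were 1.11, 0.24, 0.29 and 0.66, of which the last 3 were no longer called (adjusted p = 0.682, 0.694 and 0.295). The mean over both probes gave 0.97, 0.21, 0.19 and 0.46, all under 2-fold, and normexp background correction ended the calls against J1 in 2i (0.86) and TKO in serum (0.75). The 2i difference from J1 was 0.96 with the replicate block and without J1-2i replicate 2 and lost its call (adjusted p = 0.0524) without 3B3l-2i replicate 1, and the serum difference from TKO was 0.69 without TKO-serum replicate 2 and 0.89 without 3B3l-serum replicate 2, neither called. The second probe, A_55_P2029533, lay between −1.76 and −1.20 in J1-serum, −1.33 and −1.04 in 3B3l-serum, and −1.31 and −1.13 in 3B3l-2i. On it the same 4 differences were 0.23, −0.62, −0.72 and −0.54, with no call. Both probes carry the same RefSeq accession, and both gave a J1 response to 2i just under 2-fold, 0.83 (adjusted p = 0.00998) and 0.81 (adjusted p = 0.0127). On the main probe this response was 1.03 without J1-serum replicate 1. Of the Zfp57 partners Trim28, Setdb1, Zfp445 and Cbx5, 0 of 4 were called in 2i against serum in any line. In serum 3 of 4 were higher in 3B3l than in J1, where 9.86% of all genes were, with Trim28, the KRAB corepressor, 1.33 higher (adjusted p = 3.44e-05) and Setdb1, its H3K9 methyltransferase, 1.12 higher (adjusted p = 5e-06). In TKO-serum 1 of 4 was higher than in J1-serum (7.78% of all genes), with a list median of 0.89 against 1.09 in 3B3l. Between 3B3l-serum and TKO-serum 0 of 4 were called, where 5.19% of all genes were higher and 5.5% lower.

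Between the lines, calls among the members were mostly upward from J1. In serum 2 of 8 were higher in TKO than in J1 (Dppa2 and Khdc3) and 0 lower, where 7.78% of all genes were higher and 8.73% lower. In 3B3l-serum 3 of 8 were higher than in J1-serum (Dppa2, Khdc3 and Zfp57) and 0 lower, against 9.86% and 9.44%. 3B3l-serum exceeded TKO-serum in 1 of 8 (Zfp57) and fell below it in 0, against 5.19% and 5.5%. In 2i the TKO line exceeded J1 in 1 of 8 (Khdc3) and was lower in 0, against 3.79% and 3.56%. 3B3l-2i exceeded J1-2i in 3 of 8 (Dppa2, Khdc3 and Zfp57) and was lower in 1 (Dppa3), against 7.83% and 6.57%. 3B3l-2i exceeded TKO-2i in 2 of 8 (Dppa2 and Zfp57) and was lower in 1 (Dppa3), against 4.67% and 5.35%. The comparisons with J1 share its arrays and are not independent of each other. No array of J1-2i or TKO lay on slide 3, so the 3B3l arrays shared neither slide nor scan day with these groups. The Zfp57 calls are those of the main probe only.

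**Figure D5:**
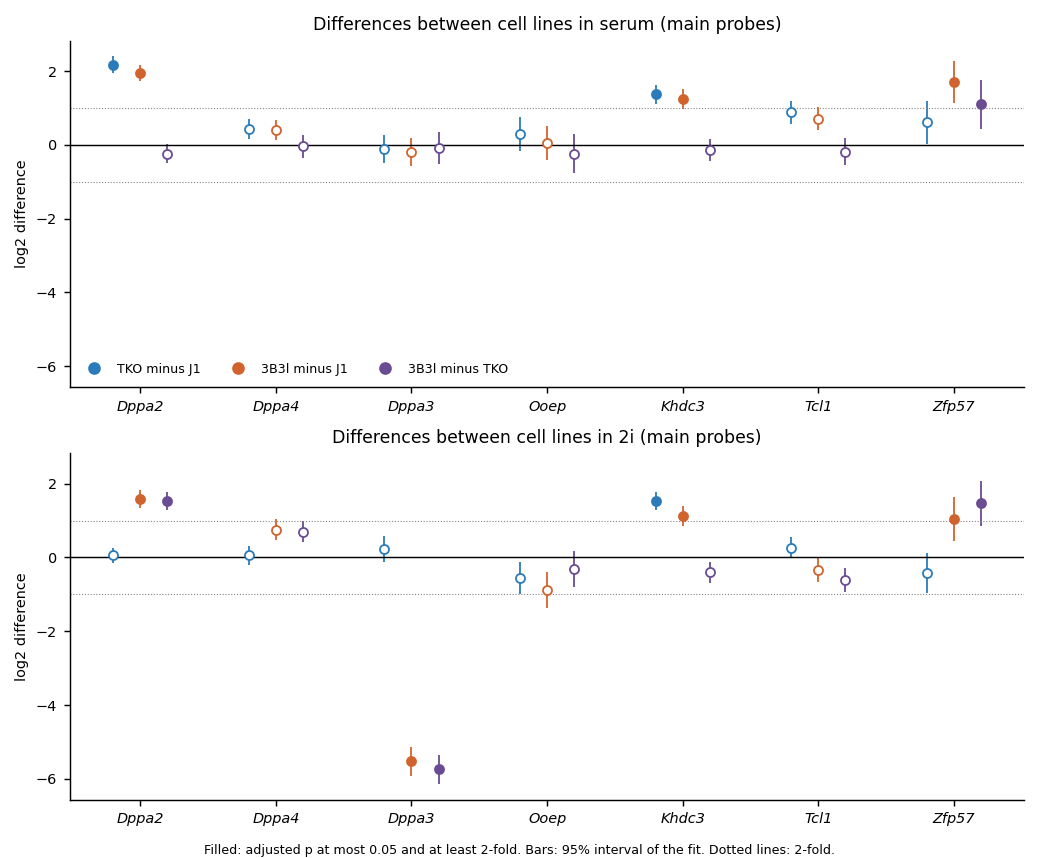
Log2 differences between lines in serum (upper panel) and 2i (lower panel) for 7 members on the x axis, with 1 key for both panels, bars for the 95% interval of the fit and filled points for calls. Dppa2 stands at 2.17 (TKO) and 1.94 (3B3l) above J1 in serum but at 0.05 and 1.59 in 2i, and Dppa3 is far below 0 for 3B3l in 2i, as fitted differences of a signal not well above background (at least 13.5-fold and 15.7-fold lower); saturated Dppa5a is left out.

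The difference of the TKO response from the J1 response was called for 0 of 8 members upward and 1 downward (Dppa2), where 7.77% and 7.52% of genes were called. For 3B3l it was called for 0 upward and 2 downward (Dppa3 and Tcl1), where 8.63% and 8.61% were. For Dppa3 the fitted difference was −5.33 (adjusted p = 3.1e-08), but with the 3B3l fall taken at its bound of 21.1-fold it was −3.56. The main Zfp57 probe differed by −1.03 in TKO (SE 0.36, adjusted p = 0.054) and the second by −1.02 (adjusted p = 0.0619).

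The genes with the most similar pattern were sought among 10057 genes well above background on all 16 arrays, by the root mean square difference of the 6 centred group means in log2 units. For Tcl1, whose means ranged over 2.10, the closest were Jak3 at 0.08, Ubxn11 at 0.12 and Klf8 at 0.13. For Dppa2, with a range of 2.25, they were Ceacam2 and Trp53 at 0.22 and Rbm19 at 0.33. For Khdc3, with a range of 2.37, they were Grrp1 at 0.23 and Rtel1 and Ptbp3 at 0.29. For Dppa4 they were Them4 at 0.13 and Dipk1b and D16Ertd472e at 0.15, over a range of 1.26. Zfp57 was matched by Spen at 0.17 and by Usp24 and Timm22 at 0.18, on its main probe. Ooep, with a range of 0.89, lay nearest to Lars2 and Net1 at 0.08 and Scyl3 at 0.10. No match is given for the saturated Dppa5a, or for Dppa3, since the search held no gene that fell to background on any array.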

How the data were processed

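Total RNA of 16 samples in 6 groups was hybridised to one-colour Agilent arrays. The authors deposited 1 scanner file per array made with Agilent Feature Extraction 11.5.1.1, per the submitters' processing notes, whose processed signal is a background-corrected, linear intensity. A table of the authors' log2 values was also deposited and served as an alternative only. Its columns best matched an array of their own group for 16 of 16 columns but their own array for 3 of 16.

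The log2 processed intensity of each non-control spot was set relative to the array's 75th percentile, and spots of a probe were averaged. Probes well above background on all arrays of at least 1 group were tested (26973 probes, 13861 genes) with limma 3.58.1 in R 4.3.3 in 1 model of 6 group means, with Benjamini-Hochberg adjustment over all of them. Calls were made at 0.05 on the adjusted p together with a change of at least 2-fold. In all, 735 tested probes lacked an array and were fitted without it; no main probe of a member was among them. Where a group was not well above background, the fold is a lower bound. The number of arrays limits the precision. Genes were named through RefSeq accessions. Python 3.11.15 read the files. The fit was tested on simulated data. Members and gene lists were chosen with earlier results of these data known. Named beside the members were at most 2 genes of a list called with the largest rise and 2 with the largest fall in a comparison, and 3 genes of the most similar pattern for each member but Dppa3 and Dppa5a; other genes named were chosen by position or after their values were seen. Alternatives covered scaling, normexp correction on the median spot signal (offset 50), filters, slide, replicate number, probe choice and leaving out each array. A further result among the gene lists is not reported here.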

Additional observations from a re-analysis of the deposited data

Results flagged for a closer look

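In TKO the Dppa2 response to 2i was set directly against that in J1, and the difference was −2.12 on the log2 scale: 2 of 2 probes fell in TKO and neither fell in J1. The Dppa3 response differed between 3B3l and J1 by a fitted −5.33, with both 3B3l-2i arrays not well above background, and by −3.56 with the 3B3l fall at its bound. The Tcl1 response differed between 3B3l and J1 by −1.04, the rise being smaller in 3B3l. J1-serum replicate 1 stood apart from its group on the main Zfp57 probe, at a relative level of 0.20 against −0.63 to −0.58 in the other 3 arrays. Chance sets apart about 1 in 20 such groups, and this array alone of its group lay on slide 3. On the second probe it was the lowest of the group, at −1.76 against −1.39 to −1.20.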

How the results depend on the processing

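No called member changed direction under the alternatives run on the main probe or on the mean over probes; the second Zfp57 probe taken alone gave −0.62, −0.72 and −0.54 for 3 of the 4 Zfp57 calls in 3B3l, with no call. The 11 Dppa2, Dppa3 and Dppa4 main-probe calls kept their side of both limits wherever the probe was tested. The count of J1 members called in 2i (1) was 3 under array median scaling, 2 in the authors' table, with slide as a block and on slide 1 alone, and 7 with no fold limit; it ranged from 1 to 2 when single arrays were left out. For 3B3l it was 0 with probes well above background on all 16 arrays, which removes Dppa3, and 4 with no fold limit. Without the fold limit the counts were also 4 for TKO-serum and 5 for 3B3l-serum against J1-serum, and 6 for 3B3l-2i against TKO-2i. Against J1-2i, 3B3l-2i gave 2 in place of 4 after normexp. 3B3l-serum against TKO-serum, a call of Zfp57 only, gave 0 after normexp, with the slide block or with the mean over probes, and 0 to 1 with single arrays left out. The TKO response difference gave 2 under median scaling, the 16-array filter, the slide block, slide 1 alone, no fold limit or the mean over probes, and 1 to 2 with arrays left out; the added gene was Zfp57, but Tcl1 with no fold limit and Ooep without TKO-serum replicate 1. The 3B3l response difference gave 1 under the 16-array filter or the slide block, and 1 to 2 with arrays left out. Without TKO-serum replicate 1 Tcl1 was 1.15 above J1-serum and called, as was Zfp57 (1.02) without TKO-serum replicate 2. Median scaling moved the median of all genes by 0.16 in J1, 0.13 in 3B3l and −0.14 in the TKO response difference. The causes were not tested.

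With the replicate number as a block, 3B3l-2i against J1-2i had 3 calls in place of 4 (Zfp57 lost, at 0.96) and the other 10 counts were equal. The deviations of arrays with the same number correlated by −0.27 to 0.29 (33 pairs), and 5 of 16 arrays correlated best with an array of their own number, so the numbers were not taken to pair the samples.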
